A study of Mus musculus with 6 samples.

Results

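The SLC25 family is the main group of mitochondrial carriers, and its genes were examined here in LSK cells of wild-type (WT) and Tet1 KO mice. Members were the genes named by probe sets whose platform annotation gives exactly 1 gene symbol beginning with Slc25a, and each gene was read at its brightest probe set, by the mean of the 6 arrays. This gave 44 genes, covered by 93 probe sets, out of 18194 genes with such an annotation. LSK cells, named for absent lineage markers with Sca-1 and Kit present, are the marrow fraction in which blood stem cells and the earliest progenitors are found. Tet1 is a dioxygenase that oxidises 5-methylcytosine in DNA, and the comparison asks which messenger RNAs differ between these cells and those labelled Tet1 KO. The cells were flow sorted from marrow of animals of the strain spelled CD57BL/6 in the labels, aged 6 months. Each of the 2 groups had 3 samples, hybridised to 1 Affymetrix array apiece, and no other allele or agent is named for either group. Which part of Tet1 was deleted, and the sex of the animals, are not stated in the sources used here. The samples carry replicate numbers, but no label says that each came from its own animal. The spread behind each p-value is that between these samples, and between replicates 1 and 2 of a group it may be wholly technical. Replicate 3 of each group differed from those in Xist and Y-linked readings, given below. Values are log2 probe set intensities, on which a difference of 1 is a doubling, and the number of arrays limits their precision.

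Carriers of this family sit in the inner mitochondrial membrane, with few exceptions, and exchange solutes between the cytosol and the matrix. The ADP/ATP carriers and the phosphate carrier supply the ATP synthase with its substrates and export ATP. Other members move citrate, malate, oxoglutarate, amino acids, acylcarnitine, nucleotides, coenzymes, glutathione and iron, and the mitoferrins and the glycine carrier Slc25a38 are known for their roles in haem synthesis in developing red cells.

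Promoter sequence is shown for Slc25a1 and Slc25a11, which had the smallest p-values of the family in the comparison of genotypes, because Tet1 acts on methylated CpG and the windows show how many CpG each start holds. They are the 250 bases before the annotated start, from RefSeq's GRCm38.p6 table, written 5′ to 3′ along the gene's strand with each CpG in capitals. DNA methylation was not measured here.
Slc25a1, chr16:17928220-17928469, minus strand: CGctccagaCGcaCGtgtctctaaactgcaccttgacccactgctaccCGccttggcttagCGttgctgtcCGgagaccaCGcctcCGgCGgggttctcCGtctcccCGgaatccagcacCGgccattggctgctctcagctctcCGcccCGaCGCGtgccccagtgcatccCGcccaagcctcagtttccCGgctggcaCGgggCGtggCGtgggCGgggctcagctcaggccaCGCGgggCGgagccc
Slc25a11, chr11:70647040-70647289, minus strand: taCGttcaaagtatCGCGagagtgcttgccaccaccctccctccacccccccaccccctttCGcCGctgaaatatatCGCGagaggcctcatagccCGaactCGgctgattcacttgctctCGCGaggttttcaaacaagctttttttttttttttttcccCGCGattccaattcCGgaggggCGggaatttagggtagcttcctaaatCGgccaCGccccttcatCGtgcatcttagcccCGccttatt

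The Slc25a1 window holds 25 CpG and the Slc25a11 window 19. Of the 44 members, 34 had an entry in the table, with 43 annotated starts. The median over these 43 windows was 12 CpG, with a range of 1 to 43, against a median of 6 and quartiles of 2 and 16 over all 32851 starts of 27025 genes. In 33 of the 43 member windows the count was above 6. The Slc25a11 window holds the letters TCGCGAGA 3 times, counting both strands, and this motif was chosen for counting after the window was seen. It was present in 2 of the 43 member windows, those of Slc25a11 and Slc25a4 (4.65%), and in 282 of all starts (0.858%). The NRF1-type motif GCGCANGCGC, on either strand, was present in the windows of Slc25a3 and Slc25a31 (4.65%) and in 1228 of all starts (3.74%). These are matches of letters, not binding sites.

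Tet1 itself, the check of the labels, averaged 6.81 ± 0.07 on the WT arrays (SD, n = 3) and 5.80 ± 0.40 on the Tet1 KO arrays (SD, n = 3), and the groups did not overlap. Its difference was -1.01 (SE 0.22), with a limma unadjusted p of 0.00271 and an adjusted p of 0.642. On the Tet1 KO arrays it still read 5.51 to 6.26, above the bacterial control level described below, and all 4 of its probe sets read lower in Tet1 KO, by -1.68 to -0.93. The sources do not say which of these probe sets lie in the deleted part. The array of Tet1 KO replicate 2 stood apart from the rest. Its correlations with the other arrays over all probe sets ran from 0.937 to 0.944, while every other pair of arrays gave 0.970 to 0.984. Its brightest bacterial control probe set read 4.87 against 4.21 to 4.37 elsewhere. Within the family, this array held the highest or the lowest of the 6 values for 28 of 44 genes (63.6%), as for 63.1% of all genes. Values with and without it are given where it matters. The female-specific transcript Xist read 11.8 to 12.2 on replicates 1 and 2 of both groups but 4.58 on WT replicate 3 and 3.82 on Tet1 KO replicate 3. The Y-linked Kdm5d was high on those same arrays, at 8.30 and 9.16, against 2.77 to 3.65 elsewhere, so both groups held 1 array of this kind. All 10 measured LSK markers were above the control level on all arrays, among them Kit, at 9.94 in WT and 9.84 in Tet1 KO, and Cd34, at 10.8 in both. The stem cell antigen gene Ly6a was not analysed here.

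LSK cells of both genotypes read most of the carriers above background. The guide to background was each array's brightest probe set among 27 bacterial controls, which averaged 4.39, and 36 of the 44 members were above it on all 6 arrays. Slc25a18, Slc25a35, Slc25a38 and Slc25a41 were above it on some arrays, and Slc25a2, Slc25a31, Slc25a48 and Slc25a54 on none. The last group includes Slc25a31, the ADP/ATP carrier known from testis, at 2.30 ± 0.06 in WT. Per array, 38 to 40 members were above the control. Over all genes, 11561 of 18194 were above it on all arrays. Probe sets differ in how strongly they bind, so their order is not an order of transcript amounts.

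**Figure D1:**
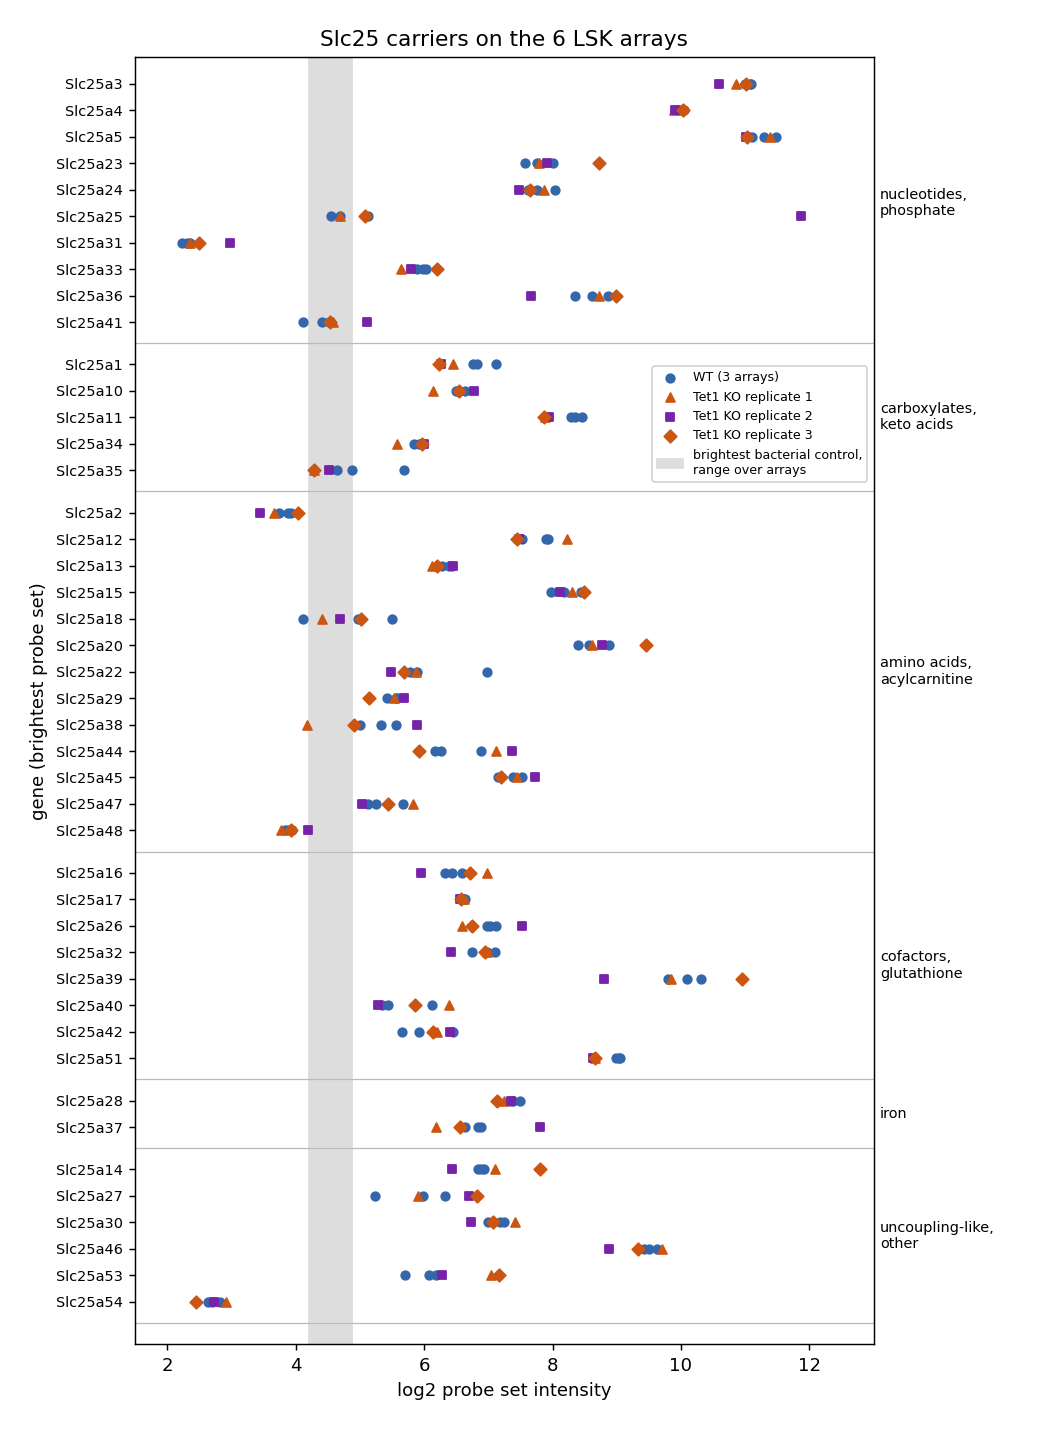
Log2 intensity of the brightest probe set of each of the 44 Slc25a genes on each of the 6 arrays, ordered by the solutes the carriers move. Circles are the 3 WT arrays, the other symbols are the 3 Tet1 KO arrays, and the grey band is the range of the brightest bacterial control, 4.21 to 4.87. Slc25a3 and Slc25a5 lie furthest to the right in both groups, the lone square at 11.9 is Slc25a25 on Tet1 KO replicate 2, and for Slc25a1, Slc25a11 and Slc25a51 the Tet1 KO symbols lie to the left of all circles.

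Members of the family lay on both sides of 0 in the comparison of genotypes. No member had a limma Benjamini-Hochberg adjusted p under 0.05, and neither did any of the 18194 genes (0%), the lowest adjusted p being 0.642. At an unadjusted p under 0.05, 4 members were lower in Tet1 KO (9.09%, against 3.96% of all genes and 5.10% of the 11561 genes above the control on all arrays). They were Slc25a1, Slc25a11, Slc25a51 and Slc25a35. At the same threshold 1 member, Slc25a53, was higher (2.27%, against 3.25% of all genes and 2.26% of those above the control). For the same 4 lower genes the highest Tet1 KO value was under the lowest WT value (9.09%, against 6.89% of all genes and 9.42% of those above the control). The reverse, all Tet1 KO values above all WT values, held for Slc25a53, Slc25a41 and Slc25a31 (6.82%, against 10.3% of all genes and 6.21% of those above the control). The share of members lower without overlap was thus near that of genes above the control. Neither share was wholly of like genes, since Slc25a35 among the lower, and Slc25a41 and Slc25a31 among the higher, were not above the control on all arrays. Of the 36 members that were, 3 read lower and 1 higher without overlap. Of the 44 members, 27 read lower and 17 higher by any amount, but the split was 23 to 21 with quantile normalization and 22 to 22 with cyclic loess. The share lower as deposited was 61.4% of members, 43.5% of all genes and 54.7% of genes above the control. The median difference of the members was -0.07, or -0.01 under either of those scalings, and the median of all genes was 0.05. Without Tet1 KO replicate 2 the unadjusted count was 6 lower (against 4.65% of all genes) and 3 higher (against 3.64%), and the median of the members was -0.01. Slc25a26 and Slc25a38 joined the lower ones, and Slc25a14 and Slc25a16 the higher ones.

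Differences of all genes depended on level, and each member was therefore set against all genes of like level, in 10 equal bins of mean level. The median difference of all genes was 0.16 in the lowest bin, 0.18 in the next pair, and lay between -0.14 and -0.07 in the upper 5 bins. After the median of each bin was subtracted, the median member was at -0.0092, and 23 of 44 members were below the median of their bin. Members were thus split almost evenly about genes of like level. The 5 genes past the unadjusted threshold kept their direction after this step, at -0.52 for Slc25a1, -0.33 for Slc25a11, -0.23 for Slc25a51, -0.87 for Slc25a35 and 0.91 for Slc25a53.

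**Figure D2:**
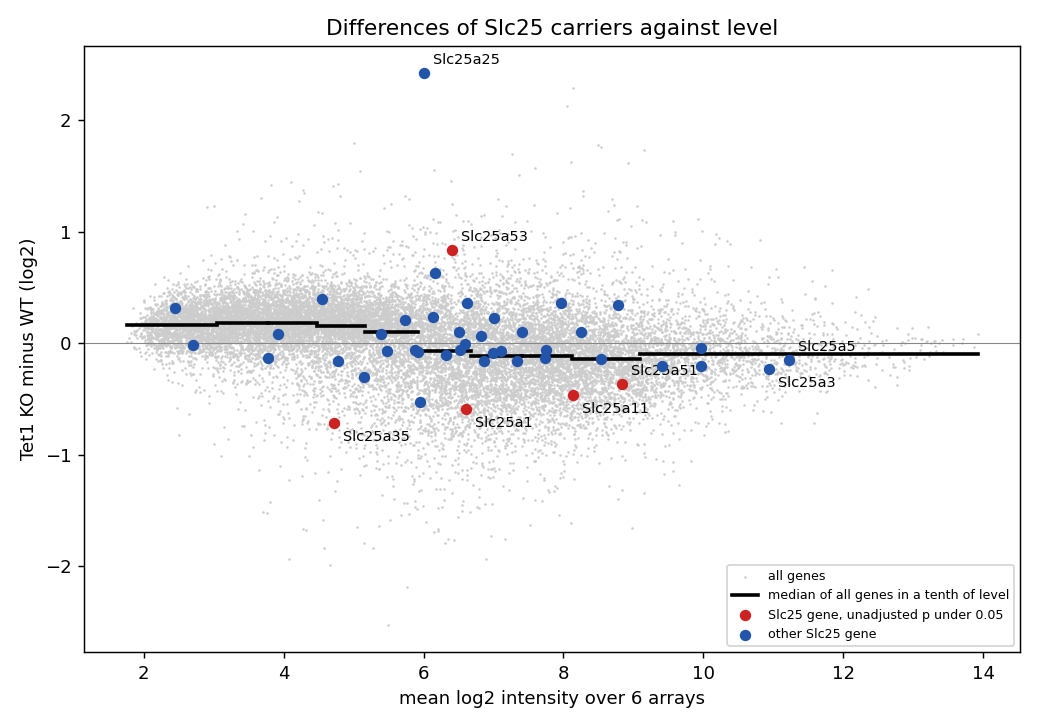
Difference Tet1 KO minus WT (log2) against mean log2 intensity over the 6 arrays, for all 18194 genes (grey) and the 44 Slc25a genes (blue, or red for an unadjusted limma p under 0.05), with the median of all genes in each of the 10 bins of level as black bars. The bars lie at 0.15 to 0.18 in the lowest 4 bins and below 0 in the upper 5, and the Slc25a genes scatter on both sides of them. Slc25a25, at 2.42, stands far above the rest and rests on 1 array.

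Carriers of carboxylates and keto acids link the citric acid cycle with the cytosol, and all 5 measured genes of this group read lower in Tet1 KO, but 4 of 5 with quantile normalization or cyclic loess and 3 of 5 without Tet1 KO replicate 1. The group's median difference was -0.47, or -0.33 after subtracting the median of each level bin, with 3 of 5 genes at an unadjusted p under 0.05. Of all genes, 43.5% read lower and 3.96% were lower at that threshold, and of genes above the control 54.7% and 5.10%. Relative to the WT mean, the median of the group was -0.45, -0.43 and -0.50 on Tet1 KO replicates 1, 2 and 3. The group was singled out after its values were seen, and it is small.

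Slc25a1 encodes the citrate carrier, which exports citrate for fatty acid and sterol synthesis. It read 6.76, 7.12 and 6.82 on the WT arrays and 6.45, 6.26 and 6.23 on the Tet1 KO arrays. The groups did not overlap, and the lowest WT array was WT replicate 1. The difference was -0.59 with a standard error (SE) of 0.16, or 0.665-fold, with a limma unadjusted p of 0.00929 and an adjusted p of 0.642. Under all alternatives it lay between -0.66 and -0.48. It was -0.59 both among the arrays with high Xist and between those with low Xist.

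Slc25a11 encodes the oxoglutarate carrier, which exchanges oxoglutarate for malate and forms part of the malate-aspartate shuttle. It read 8.29, 8.46 and 8.35 on the WT arrays and 7.89, 7.94 and 7.87 on the Tet1 KO arrays. The Tet1 KO arrays lay within a narrow range below all WT arrays, replicate 2 included. The difference was -0.47 (SE 0.14), or 0.724-fold, with a limma unadjusted p of 0.0117 and an adjusted p of 0.642, and it lay between -0.50 and -0.34 under all alternatives. Without WT replicate 2 its unadjusted limma p was 0.0525.

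Slc25a35, a carrier of this group whose substrate is not well established, was dim. It read 4.87, 4.65 and 5.69 on the WT arrays and 4.28, 4.51 and 4.28 on the Tet1 KO arrays, and was above the bacterial control on 4 of the 6. WT replicate 3 was the highest array, and the groups did not overlap. The difference was -0.71 (SE 0.28), with a limma unadjusted p of 0.0398 and an adjusted p of 0.642, but -0.40 without WT replicate 3. Its unadjusted limma p was above 0.05 without WT replicate 1 or 3 and without Tet1 KO replicate 1 or 3. It was 0.0531 with the replicate block and 0.0581 with array weights. In the other carriers of the group the genotypes overlapped. The dicarboxylate carrier Slc25a10 averaged 6.55 in WT and 6.49 in Tet1 KO, and Slc25a34, close in sequence to Slc25a35, averaged 5.91 and 5.84. The oxodicarboxylate carrier Slc25a21 was not analysed here.

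The nucleotide and phosphate carriers included the brightest probe sets of the family. Among 10 measured genes, 6 were below 0 and 4 above it in the difference, whose median was -0.06, with 0 genes at an unadjusted limma p under 0.05. Slc25a3, the phosphate carrier, read 11.07, 11.10 and 10.997 on the WT arrays and 10.86, 10.59 and 11.01 on the Tet1 KO arrays. Its groups overlapped, with Tet1 KO replicate 2 lowest. The difference was -0.24 (SE 0.16), with a limma unadjusted p of 0.190 and an adjusted p of 0.650. It was -0.12 without Tet1 KO replicate 2 and -0.08 with the mean of both probe sets.

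Slc25a5 encodes ADP/ATP carrier 2, the form of dividing cells. Its brightest probe set read 11.11, 11.48 and 11.30 on the WT arrays and 11.39, 11.01 and 11.03 on the Tet1 KO arrays, so Tet1 KO replicate 1 lay within the WT range. The difference was -0.15 (SE 0.18), with a limma unadjusted p of 0.430 and an adjusted p of 0.746. It ran from -0.27 to -0.06 when 1 array was left out. The gene has 8 probe sets, all above the control level, and all 8 read lower in Tet1 KO as deposited, by -0.66 to -0.11. At 6 of them the groups did not overlap. Most carry the suffix that marks probes shared with other transcripts, and they may read the same RNA, so they are not independent measurements. The mean of all 8 gave -0.37, and the median difference in the level bin of the gene was -0.10. WT replicate 2 was the highest array at every one of the 8. At the probe set of -0.66 it read 11.83, against 10.855 and 10.745 on the other WT arrays. At that of -0.53 it read 7.59, against 6.43 and 6.45. Of genes above the control, 9.42% read lower without overlap at their brightest probe set.

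Slc25a4 encodes ADP/ATP carrier 1, the form of heart and muscle. Its brightest probe set read 9.95, 10.04 and 9.98 on the WT arrays and 9.90, 9.91 and 10.03 on the Tet1 KO arrays, which overlapped. The difference was -0.05 (SE 0.14) as deposited, but 0.07 with cyclic loess and 0.01 with quantile normalization, with a limma unadjusted p of 0.749 and an adjusted p of 0.905. A further pair of probe sets of similar brightness read -0.40 and -0.45 without overlap. The choice of probe set thus moved the value of Slc25a4 more than the spread between arrays did.

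The calcium-regulated carriers exchange ATP-Mg for phosphate, and Slc25a25 held the largest value of the family on a single array. Its brightest probe set read 5.13, 4.70 and 4.56 on the WT arrays and 4.69, 11.86 and 5.09 on the Tet1 KO arrays. Tet1 KO replicate 2 exceeded the next array by 6.73, the largest such gap of any of the 18194 genes on that array. The difference was 2.42 (SE 1.79) with it and 0.09 without it, and the limma adjusted p was 0.662. Of the other probe sets of the gene, one read 6.80 on that array against 5.29 to 5.77 elsewhere, and the other read 5.81 against 5.57 to 5.81. Without this array, both of those would have been brighter than the probe set that stands for the gene. Slc25a25 was singled out after its values were seen.

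Slc25a41, of the same subgroup, read 4.41, 4.11 and 4.52 on the WT arrays and 4.58, 5.11 and 4.54 on the Tet1 KO arrays, near the control level. The groups did not overlap, and Tet1 KO replicate 2, which also had the brightest control, was highest. The difference was 0.39 (SE 0.21), with a limma unadjusted p of 0.109 and an adjusted p of 0.642. It was 0.21 without that array. Slc25a23 averaged 7.78 in WT and 8.14 in Tet1 KO, with Tet1 KO replicate 3 the highest at 8.72. Slc25a24 averaged 7.80 and 7.67. Slc25a33 and Slc25a36 carry pyrimidine nucleotides, and averaged 5.96 in WT against 5.88 in Tet1 KO, and 8.61 against 8.46. A further probe set of Slc25a36 read -0.89 without overlap, and the third read -0.04. Slc25a31 averaged 2.30 in WT and 2.61 in Tet1 KO, below the control on all arrays.

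**Figure D3:**
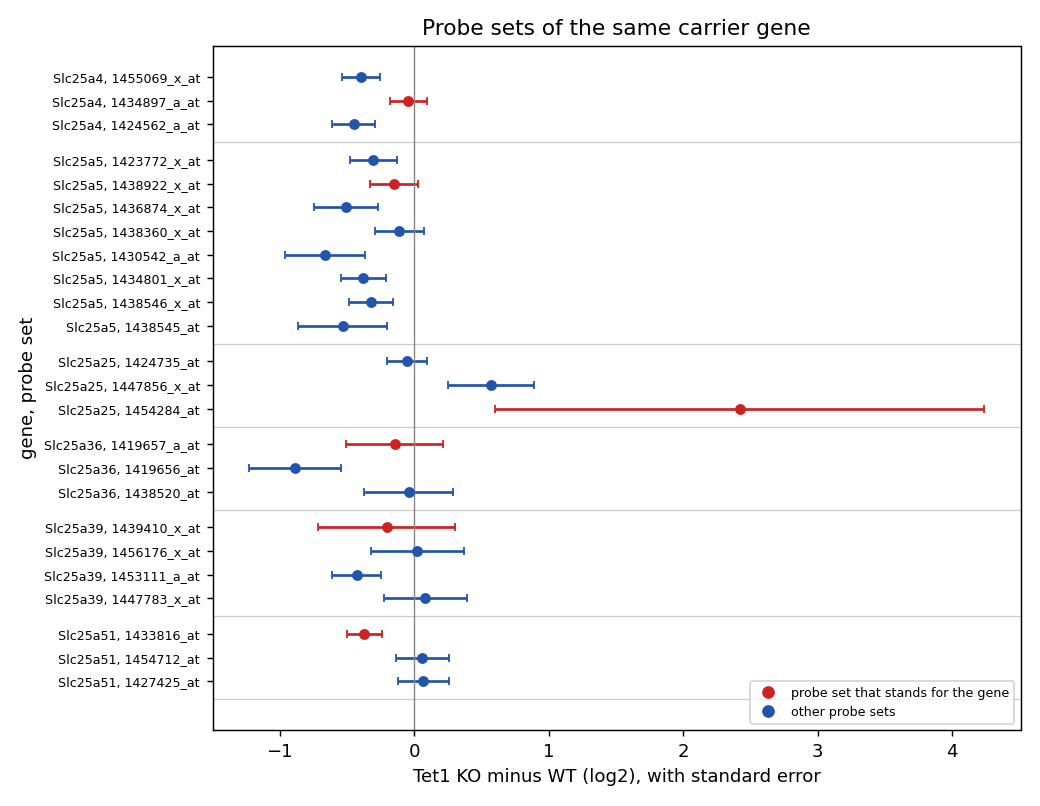
Difference Tet1 KO minus WT (log2) with its standard error at every probe set above the control level on all arrays, for 6 carriers whose probe sets are compared in the text. Red marks the brightest probe set, which stands for the gene. All 8 probe sets of Slc25a5 lie below 0 as deposited, Slc25a4 and Slc25a51 hold probe sets with clearly different values, and the probe set of Slc25a25 at 2.42 has the widest error.

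Carriers of amino acids and acylcarnitine were mixed. Among 13 measured genes, 7 were below 0 and 6 above it in the difference, whose median was -0.07, with 0 genes at an unadjusted limma p under 0.05. Slc25a22, a glutamate carrier, had the smallest p of the group. It read 5.78, 6.98 and 5.89 on the WT arrays and 5.88, 5.49 and 5.69 on the Tet1 KO arrays. WT replicate 2 stood above all others, and the groups overlapped. The difference was -0.53 (SE 0.33), with a limma unadjusted p of 0.153 and an adjusted p of 0.642, but -0.15 without WT replicate 2.

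Slc25a38 brings glycine into the matrix for the first step of haem synthesis. It read 5.56, 5.33 and 4.997 on the WT arrays and 4.17, 5.89 and 4.91 on the Tet1 KO arrays. Tet1 KO replicates 1 and 2 lay at opposite ends of all 6 values. The difference was -0.30 (SE 0.42), with a limma unadjusted p of 0.495 and an adjusted p of 0.779. It was 0.11 without Tet1 KO replicate 1 and -0.75 without replicate 2.

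The aspartate/glutamate carriers Slc25a12 and Slc25a13, which complete the malate-aspartate shuttle, averaged 7.78 in WT and 7.72 in Tet1 KO, and 6.37 and 6.26. The ornithine carrier Slc25a15 averaged 8.20 and 8.30. Its relative Slc25a2 averaged 3.85 and 3.71, below the control. The carnitine/acylcarnitine carrier Slc25a20, needed for fatty acid oxidation, averaged 8.61 in WT and 8.95 in Tet1 KO, with Tet1 KO replicate 3 the highest at 9.46. Its 2 probe sets both read higher, by 0.25 and 0.34, with overlapping groups. The second glutamate carrier, Slc25a18, was dim and averaged 4.86 and 4.70. Slc25a29, a carrier of basic amino acids, averaged 5.52 and 5.45. The branched-chain amino acid carrier Slc25a44 averaged 6.44 and 6.80, with Tet1 KO arrays on both sides of the WT range. Slc25a45 averaged 7.36 and 7.45, Slc25a47 averaged 5.35 and 5.43, and Slc25a48, below the control, averaged 3.89 and 3.97.

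Among carriers of coenzymes and glutathione, Slc25a51 was the one past the unadjusted threshold. The group had 8 measured genes, 5 lower and 3 higher, with a median of -0.05. Slc25a51 brings NAD+ into mitochondria. It read 8.99, 9.04 and 9.05 on the WT arrays and 8.67, 8.63 and 8.66 on the Tet1 KO arrays. Both groups were tight and did not overlap, with SDs of 0.03 and 0.02, the smallest of the 44 members in each group. The difference was -0.37 (SE 0.13), or 0.773-fold, with a limma unadjusted p of 0.0263 and an adjusted p of 0.642. The other probe sets of the gene read 0.06 and 0.07 with overlapping groups, and the mean of all 3 gave -0.08. Its unadjusted limma p was above 0.05 without any 1 of the WT arrays and without Tet1 KO replicate 1. It was 0.0685 with quantile normalization, 0.0961 with cyclic loess, 0.0818 with the replicate block and 0.547 with the mean of probe sets.

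Slc25a39, a glutathione carrier, was bright and spread widely. It averaged 10.1 in WT and 9.86 in Tet1 KO, where replicate 2 read 8.80 and replicate 3 read 10.9. Its other probe sets above the control read -0.43 without overlap, 0.02 and 0.08. Its relative Slc25a40 averaged 5.64 and 5.84. Slc25a26, the S-adenosylmethionine carrier that supplies methyl groups to the matrix, averaged 7.04 and 6.95, and -0.37 separated the groups without Tet1 KO replicate 2. The folate carrier Slc25a32 averaged 6.94 and 6.78, and both of its probe sets above the control read lower as deposited. At its brightest probe set the difference was 0.02 without Tet1 KO replicate 2. Slc25a16 and Slc25a42, linked to coenzyme A, averaged 6.45 in WT against 6.55 in Tet1 KO, and 6.01 against 6.25. The peroxisomal carrier Slc25a17 was nearly the same in both groups, at 6.60 and 6.59.

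The mitoferrins import iron, and in both the groups overlapped. Slc25a28, mitoferrin 2 and the widely expressed form, read 7.36, 7.39 and 7.50 on the WT arrays and 7.25, 7.36 and 7.14 on the Tet1 KO arrays. The groups overlapped at Tet1 KO replicate 2 alone. The difference was -0.16 (SE 0.14), with a limma unadjusted p of 0.292 and an adjusted p of 0.684. Slc25a37, mitoferrin 1 and the erythroid form, read 6.64, 6.84 and 6.89 on the WT arrays and 6.19, 7.81 and 6.55 on the Tet1 KO arrays. Tet1 KO replicate 2 lay above all WT arrays and the other Tet1 KO arrays below them. The difference was 0.06 (SE 0.40), with a limma unadjusted p of 0.886 and an adjusted p of 0.958, and it was -0.42 without that array.

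Of the 6 carriers related to uncoupling proteins or without a settled substrate, 3 read lower and 3 higher, with a median of 0.10. Slc25a53, an X-linked carrier without a known substrate, was the one member higher at the unadjusted threshold. It read 6.19, 6.08 and 5.70 on the WT arrays and 7.05, 6.27 and 7.17 on the Tet1 KO arrays. The groups did not overlap, though Tet1 KO replicate 2 was only just above the WT range. The difference was 0.84 (SE 0.28), or 1.79-fold, with a limma unadjusted p of 0.0193 and an adjusted p of 0.642. It was 1.12 without Tet1 KO replicate 2, 0.52 among the arrays with high Xist and 1.47 between those with low Xist. Its other probe set read -0.49, and the mean of both gave 0.17. That probe set read 3.53 on Tet1 KO replicate 2, below the control of 4.87 on that array. On the other Tet1 KO arrays it read 6.21 and 6.30, above the 5.51 to 6.04 of the WT arrays. The unadjusted limma p of Slc25a53 was above 0.05 without WT replicate 3, Tet1 KO replicate 1 or Tet1 KO replicate 3.

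The brain-type uncoupling proteins Slc25a14 and Slc25a27 averaged 6.89 in WT against 7.11 in Tet1 KO, and 5.85 against 6.47. Slc25a14 read 7.10 and 7.80 on Tet1 KO replicates 1 and 3 but 6.44 on replicate 2. Slc25a30, known from kidney, averaged 7.14 and 7.07. Slc25a46, an outer membrane member with a role in mitochondrial shape, averaged 9.51 and 9.31. Slc25a54 averaged 2.71 and 2.69, below the control on all arrays. The orphan carrier Slc25a43 was not analysed here.

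The spread between arrays was larger in Tet1 KO than in WT for 33 of 44 members (75%), as for 72.9% of all genes. The median SD of the members was 0.18 in WT and 0.31 in Tet1 KO, against 0.16 and 0.29 over all genes. Of the 16 members with more than 1 probe set above the control on all arrays, Slc25a4, Slc25a5, Slc25a10, Slc25a26, Slc25a32 and Slc25a36 were lower at every such probe set as deposited, and Slc25a15, Slc25a20 and Slc25a44 higher at every one. The remaining 7 had probe sets in both directions, among them Slc25a51. Without Tet1 KO replicate 2, the brightest probe sets of Slc25a32 and Slc25a36 read higher, by 0.02 and 0.25.

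The wider pathway was read from lists of genes that work beside the carriers. Of the family's relatives under other symbols, 4 were measured. Mtch2, an outer membrane insertase, read 8.21, 8.90 and 8.56 on the WT arrays and 7.96, 7.46 and 7.81 on the Tet1 KO arrays, without overlap. Its difference was -0.81 (SE 0.23), with a limma unadjusted p of 0.00984 and an adjusted p of 0.642. The uncoupling protein gene Ucp3 read 0.34 higher, near the control level.

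Import of carriers runs through the outer membrane translocase, small chaperones of the intermembrane space and the TIM22 complex. All 13 measured genes of this machinery were above the control, 9 read lower and 4 read higher, with 0 genes at an unadjusted limma p under 0.05. Of genes above the control 54.7% read lower, and of all genes 43.5%. The median difference of the list was -0.15, or -0.01 after subtracting the median of each level bin. After that step 7 of the 13 were below 0, so the list was split almost evenly about genes of like level. The chaperone gene Timm8b differed by -0.32 without overlap. The pore gene Tomm40 differed by -0.28, or -0.12 without WT replicate 2. Among 17 other transport genes of the inner and outer membranes, 13 read lower and 4 higher, with a median of -0.08. After subtracting the median of each level bin their median was -0.05, and 10 of the 17 were below 0. Smdt1, a subunit of the calcium uniporter, was the one past the unadjusted threshold, at -0.50 (SE 0.14, limma unadjusted p = 0.0107, adjusted p = 0.642), and the ABC transporter gene Abcb8 differed by -0.61, or -0.39 without Tet1 KO replicate 2.

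Haem and iron-sulphur cluster synthesis uses the iron and glycine that the carriers bring in, and 13 of its 14 measured genes read lower in Tet1 KO, but 12 with cyclic loess and 11 with the mean of probe sets, without Tet1 KO replicate 1 or among the arrays with high Xist. The count was also lower than 13 without WT replicate 1 or Tet1 KO replicate 3, where Urod read 0.0081 and 0.03. It was so too without WT replicate 3, where Nfs1 read 0.14, and without Tet1 KO replicate 2, where Cpox read 0.12. These alternatives were added for this list after its values were seen. Of all genes 43.5% read lower, and of genes above the control 54.7%. The median difference was -0.41, or -0.32 after subtracting the median of each level bin, and 3 genes were past the unadjusted threshold in this direction, which 3.96% of all genes and 5.10% of those above the control passed. Glrx5, a glutaredoxin of iron-sulphur cluster assembly, read 9.58, 9.64 and 9.35 on the WT arrays and 8.85, 8.75 and 8.95 on the Tet1 KO arrays. These did not overlap, and the difference was -0.67 (SE 0.15, limma unadjusted p = 0.00327, adjusted p = 0.642). The co-chaperone gene Hscb differed by -0.62 without overlap, with a limma unadjusted p above 0.05 without WT replicate 1 or 3. The ferrochelatase gene Fech differed by -0.87 without overlap, or -0.52 without Tet1 KO replicate 2, and its unadjusted limma p was above 0.05 without WT replicate 1 or 2. Uros, an enzyme of the haem pathway, was the exception, at 0.31. The count at the unadjusted threshold was 1 without WT replicate 1. In a bulk sample, fewer cells of a type and less RNA per cell cannot be told apart. Of 6 measured genes listed as markers of mature erythroid cells, 3 were above the control on all arrays, namely Tfrc, Klf1 and Epb42. The globin gene Hba-a1 was above it on none and Alas2, which stands in both lists, on 1. Whether the 3 came from mature cells in the sort was not tested. The summed log2 level of the 6 ran from 31.5 to 32.1 in WT and from 31.8 to 33.7 in Tet1 KO. Their part in the result was not tested.

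The enzymes of the malate-aspartate shuttle work with Slc25a11, Slc25a12 and Slc25a13, and those of the glycerol phosphate shuttle move the same reducing power without a carrier. Together they were split in direction. Of 7 genes, 3 read lower and 4 higher, with a median of 0.19. The cytosolic transaminase gene Got1 differed by -0.74 (SE 0.23, limma unadjusted p = 0.0162, adjusted p = 0.642) and the glycerol phosphate dehydrogenase gene Gpd2 by -0.49 (SE 0.20, unadjusted p = 0.0441, adjusted p = 0.642), both without overlap. Gpd2 was at -0.32 without Tet1 KO replicate 2, with an unadjusted limma p of 0.0791, and its p was above 0.05 without any 1 array other than Tet1 KO replicate 1. Got1 was above an unadjusted limma p of 0.05 without WT replicate 1 or 2 or Tet1 KO replicate 3. The mitochondrial enzymes of one-carbon metabolism, fed by folate and glycine, gave 5 lower and 4 higher of 9. Their median difference was -0.11, with 0 genes at an unadjusted limma p under 0.05. The formyltransferase gene Mtfmt differed by -0.65, but by -0.11 without Tet1 KO replicate 2. Mthfd2l differed by -0.24, but by 0.0039 when Tet1 KO replicate 3 was left out and by 0.01 when WT replicate 3 was.

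**Figure D4:**
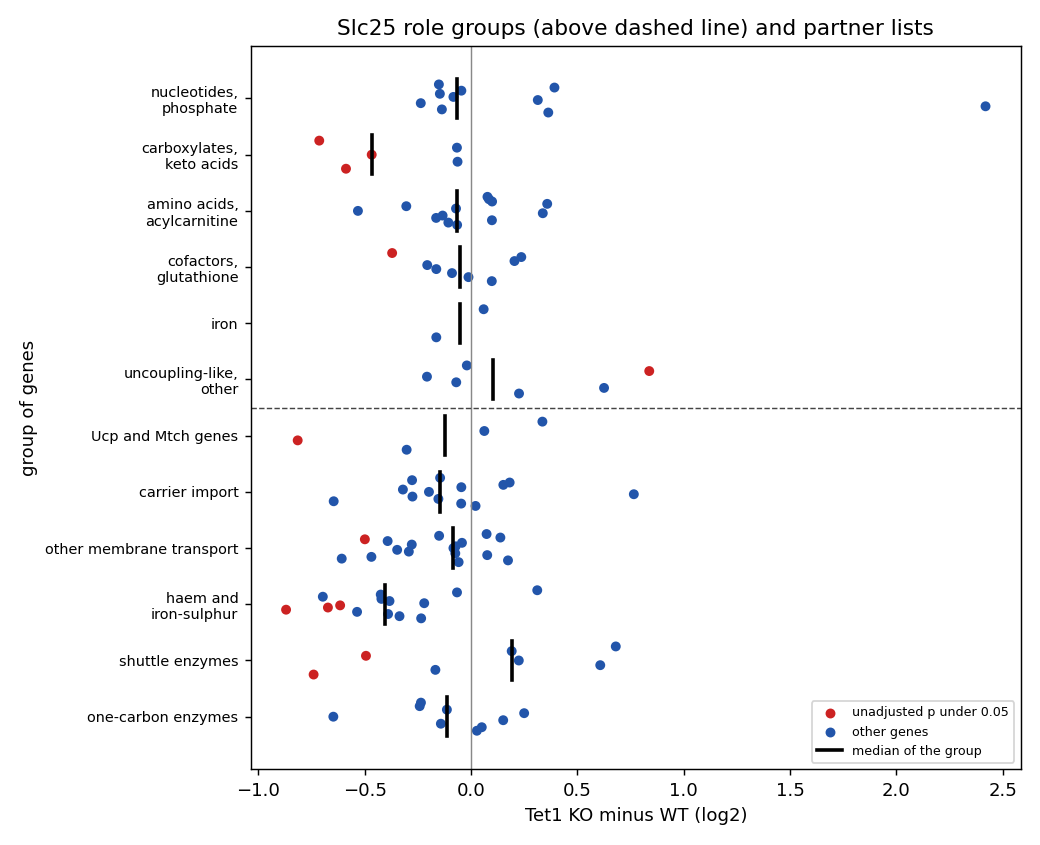
Difference Tet1 KO minus WT (log2) of every measured gene in the 6 carrier groups (above the dashed line) and in the 6 lists of genes that work beside them, with the median of each as a black bar and genes at an unadjusted limma p under 0.05 in red. The carboxylate and keto acid carriers (median -0.47) and the haem and iron-sulphur genes (median -0.41) lie mostly to the left of 0 as deposited, with 1 carrier of the first and 1 more gene of the second on the other side of 0 under cyclic loess.

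Markers of other cells that a sort could hold were read on the same arrays. Of 7 measured markers of mature granulocytes and monocytes, 6 were above the control on all arrays, among them Mpo, which early myeloid progenitors also express. Their summed log2 level ran from 52.3 to 54.8 in WT and from 52.8 to 57.6 in Tet1 KO. Of 7 markers of mature B, T and NK cells, 3 were above the control on all arrays, and Ms4a1, Cd3e, Cd3g and Ncr1 were above it on none. Their sum ran from 29.4 to 30.2 in WT and from 30.6 to 31.9 in Tet1 KO, without overlap. The general difference of dim genes had the same sign, and after subtracting the median of each level bin the median of this list was 0.09 in place of 0.22. Cd8a differed by 0.53 (SE 0.20, limma unadjusted p = 0.0351, adjusted p = 0.642), or by 0.35 without Tet1 KO replicate 2, and its unadjusted limma p was above 0.05 without that array, WT replicate 1 or WT replicate 2. The sum of the LSK markers ran from 93.1 to 95.9 in WT and from 91.9 to 95.0 in Tet1 KO, with Gata2 at -0.66, or -0.38 without Tet1 KO replicate 2, and Hlf at -0.50, or -0.33 without WT replicate 1. The part of these markers in the values of the carriers was not tested.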

How the data were processed

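RNA of 3 WT and 3 Tet1 KO samples, made into cDNA from 125 ng per the labels' protocols, was hybridised to 1 array each. The deposited table holds log2 intensities for 45101 probe sets, from 1.50 to 14.6, with array medians within 0.0694. That they are log2 was inferred from their range, and the authors' background correction, normalization and summarization are not given in the sources used here. Of the probe sets, 34958 name 1 gene, 932 several and 9211 none. One naming Slc25a37 with another gene was not used. limma 3.58.1 in R 4.3.3 (lmFit, eBayes, genotype as the only term, two-sided) was fitted to 18194 genes at their brightest probe set, with Benjamini-Hochberg adjustment over all, and was tested on simulated data. The bacterial control level, the 10 equal bins of mean level and all counts were computed here, with no filter. The replicate numbers were not used to pair the samples in this fit. Same-numbered arrays deviated from their group means with correlations of 0.01, -0.01 and 0.03. With 3 arrays a group, these values cannot show whether the samples were paired by design. In both groups Xist was high on replicates 1 and 2 and low on replicate 3.

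Values in every array are given for members with an unadjusted p under 0.05, members without overlap that differ by at least 0.4, the smallest p of each carrier group, and Slc25a3, Slc25a4, Slc25a5, Slc25a37 and Slc25a38. Other members are given by group means, and of other lists up to 2 genes with the smallest p. Fech, Uros and Slc25a25 were named after their values were seen. The members and lists were chosen with earlier results of these data known. The promoter windows are those of RefSeq, build GRCm38.p6, matched by symbol. Alternatives were quantile normalization, cyclic loess, equal medians, filters on level, the mean of probe sets, an intensity trend with robust estimation, array weights, the replicate block and leaving out each array. The Xist state of the arrays was added after seeing the data. matplotlib 3.10.9 made the figures.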

Additional observations from a re-analysis of the deposited data

How the results depend on the processing

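In 0 of the alternatives did a member pass the limma Benjamini-Hochberg threshold, and Slc25a1, Slc25a11, Slc25a51, Slc25a35 and Slc25a53 kept their direction in all that gave a value, which leaves out Slc25a35 among genes above the median level. The cause of the changes below was not tested, except that 2 arrays a group leave fewer samples. Members lower at an unadjusted p under 0.05 (4) numbered 2 with the replicate block, 2 to 6 when 1 array was left out and 0 among the arrays with high Xist. Members higher (1) numbered 0 with the mean of probe sets, 0 to 3 when 1 array was left out and 0 among the arrays with high Xist. The median difference of the members (-0.0656) was -0.0252 with array weights, -0.0060 with cyclic loess and -0.0083 with quantile normalization, and -0.0733 to -0.0137 when 1 array was left out. The median after subtracting the level bins (-0.0092) was 0.0212 with array weights, 0.0506 among the genes above the median level, 0.0265 with the mean of probe sets and 0.0289 among the arrays with high Xist, and -0.0607 to 0.0355 when 1 array was left out. Slc25a37 (0.06) was -0.28 with array weights and -0.42 to 0.39 when 1 array was left out. Slc25a4 (-0.05) was 0.0744 with cyclic loess and 0.0148 with quantile normalization, and Slc25a38 (-0.30) was -0.75 to 0.11 when 1 array was left out. The carboxylate and keto acid carriers at an unadjusted p under 0.05 (3) numbered 0 among the arrays with high Xist, and the group counted 3 of 3 lower among genes above the median level. Of all calls at an unadjusted p under 0.05, 54.9% were lower, and 55.2% to 61.6% under the other scalings. Members above the control level on all arrays numbered 36, and 40 were above the averaged control by their mean over the arrays. Signal near the control level limits Slc25a35, Slc25a38 and Slc25a41.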
